A study of Caenorhabditis elegans with 8 samples.

Results

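Genes for histone methylation and heterochromatin regulators were followed in glp-1 nematodes as embryos, young adults and aging adults. The 10 genes listed were mes-2, mes-3, mes-4, mes-6, met-2, set-2, hpl-1, hpl-2, spr-5 and utx-1, and a gene was taken up when a probe set of the array was annotated to it alone. That held for 9 of the 10, with 19 probe sets, out of 17118 genes in all. The gene mes-6 shares its probe set with another annotated gene and is not analysed here.

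All 8 arrays were of strain JK1107, which carries glp-1(q224), a Notch receptor mutation, so that no group had a wild-type germ line as its control. The 3 embryo arrays were each of a pool of about 5000 bleached eggs of various stages, whose parents had been kept at 15°C. The 3 young adult and 2 aging adult arrays were each of 3000 to 5000 animals hatched at 20°C and raised at 25°C, where germ cells do not proliferate, to day 1 or day 6 of adulthood. These are the sample labels' values, while the series text gives smaller pools for all groups, and the series text names only the higher temperature. The labels call the last group old. They do not say whether replicate pools came from separate cultures, so that p-values measure the spread between these pools, which may be technical.

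Histone tails carry methyl groups that mark chromatin as active or silent. Methyltransferases place them, demethylases remove them, and reader proteins bind them. In C. elegans the products of mes-2, mes-3 and mes-6 form the Polycomb repressive complex, which methylates histone H3 at a lysine linked to silencing. The product of mes-4 methylates another lysine of H3 on genes that were active in the parental germ line. The mes genes are named for maternal-effect sterility, since the mother's product is needed for the germ cells of her offspring to survive. The product of met-2 methylates H3 at the lysine that marks heterochromatin, and HP1 proteins, encoded by hpl-1 and hpl-2, are found there. The product of set-2 is the catalytic subunit of a COMPASS complex, which methylates H3 at promoters. The products of spr-5 and utx-1 are demethylases, the first for the COMPASS mark and the second for the Polycomb mark.

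The deposited intensities are linear and in part negative, so that a background had been taken off, and the median array intensity lay between 56.2 and 64.2 for embryos, between 19.1 and 21.9 for young adults and between 32.4 and 36.9 for aging adults. Each array was therefore divided by its median, as in the study's methods, and the result, in multiples of the array median, is called normalized expression. Negative readings served to gauge the noise: the noise level of an array is the size that 95% of its negative values do not exceed, and it lay between 24.4 and 35.0. The median of every young adult array was below its noise level. Folds are taken from differences of mean log2 values, so they can differ from the ratio of the mean normalized expression values printed. Where no array of a group was above the noise level, only a lower bound on a fold is given. The number of arrays limits the precision.

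Every one of the 9 genes was above the noise level on all 3 embryo arrays, as were 55.3% of all genes. In young adults 3 of the 9 were above it on every array and 4 on none, against 38% and 50.7% of all genes. In aging adults 6 were above it on both arrays and 1 on neither, against 48.3% and 47% of all genes. The plot of deposited intensities shows this for each probe set.

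**Figure D1:**
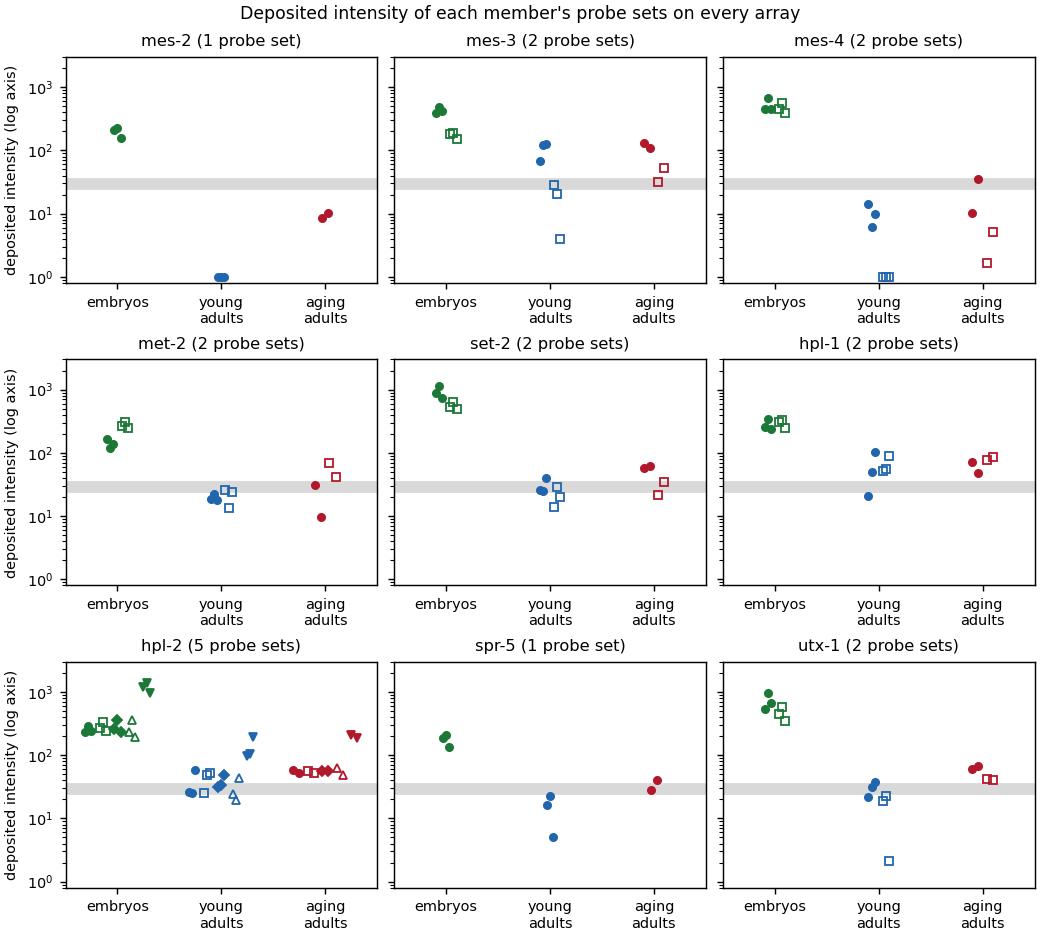
Deposited intensity (log axis, values below 1 drawn at 1) of every probe set of the 9 genes on 3 embryo, 3 young adult and 2 aging adult arrays, 1 point for each array, with a marker shape for each probe set. The grey band spans the noise levels of the 8 arrays, from 24.4 to 35.0, and all embryo points lie above it.

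Between embryos and young adults, 8 of the 9 genes were higher in embryos and 0 were lower (limma, Benjamini-Hochberg adjusted p under 0.05), where 22.5% of all genes were called higher and 31.2% lower. The groups did not overlap for those 8, which 27.5% of all genes also showed in that direction. The median log2 fold change of the 9 was 2.23, and that of all genes was -0.38. With lower values raised to the noise level, these medians were 1.08 for the 9 genes and -0.60 for the 11554 genes above it on any array of these groups. The balance over all genes moved with the scaling, from 3849 higher and 5337 lower to 6627 and 2167 without rescaling, where the median of all genes was 1.19 and that of the members 3.79. In bulk pools, fewer cells of a type and less RNA per cell cannot be told apart.

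Germ line and dividing-cell transcripts moved with these genes. Of 20 germ line and oocyte markers, 20 were above the noise level on every embryo array, 2 on every young adult array and 6 on both aging adult arrays, while 16 and 13 were above it on no array of the 2 adult groups. From young to aging adults 3 of the 20 were called higher and 1 lower, where 2.74% of all genes were called higher and 4.44% lower. Only 8 of the 20 were above the noise level on any adult array. The summed normalized expression of the 20 markers ranged from 149 to 199 in embryos. It ranged from 21.1 to 26.97 in young adults and from 29.5 to 30.5 in aging adults. Of the 20, pgl-1, pgl-3, glh-2, gld-1, oma-1, puf-5, rme-2, him-3, htp-3, syp-1, rec-8 and pie-1 were below the noise level on every adult array. The genes glh-1, glh-4, oma-2 and mex-3 were below it on all young but not all aging adult arrays. For nos-2 it was all aging but not all young adult arrays. Of 14 markers of dividing cells, 14 were above the noise level on every embryo array and 13 were above it on no young adult array. Their summed normalized expression was 418 to 587, 6.23 to 7.55 and 6.86 to 7.50 in the 3 groups in that order. The part of these cells in the changes described here was not tested. Of 9 markers of the adult intestine and yolk, 9 exceeded the noise level in all adult pools, while vit-1, vit-2, vit-4 and vit-5 were above it on no embryo array.

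The Polycomb gene mes-2, which encodes the catalytic subunit, had deposited intensities of 208, 229 and 156 in embryos. In young adults its probe set read -2.99, -5.36 and -4.13, and in aging adults 8.51 and 10.1. The adult readings all lay below the noise level and the embryo readings above it. The probe set is of a design that may match several transcripts, and mes-2 has no other. It was at least 2.12-fold higher in embryos than in young adults (limma, adjusted p = 5.47e-05) and at least 3.51-fold higher than in aging adults (adjusted p = 0.0284). The first p-value is no support for its bound, since all young adult readings were negative and set to the same small constant. The second call was lost when any 1 embryo or aging adult array was left out, with an adjusted p of 0.0931, 0.0874 and 0.0602 without embryos replicate 1, 2 and 3, and of 0.0969 and 0.0759 without aging adults replicate 1 and 2.

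The gene mes-3, for a further Polycomb subunit, was measured by 2 probe sets that gave different accounts of the adults. The brighter read 394, 479 and 418 in embryos, 68.1, 121 and 125 in young adults and 130.1 and 110.3 in aging adults, above the noise level on all 8 arrays. The dimmer read 182, 187 and 154 in embryos, 28.3, 20.5 and 4.01 in young adults and 31.7 and 53.5 in aging adults, above it on 1 of 5 adult arrays. In multiples of the array median, mes-3 was 4.50 ± 0.38 (SD, n = 3) in embryos, 1.90 ± 0.76 (SD, n = 3) in young adults and, over the 2 aging adult arrays, 2.06 ± 0.45 (SD). This is 2.52-fold higher in embryos than in young adults (log2 fold change 1.34, SE 0.35, limma adjusted p = 0.0159) and 2.21-fold higher than in aging adults (1.14, SE 0.39, adjusted p = 0.0504). The first call rests on the dimmer probe set, which was within the noise in young adults, and at the noise level the log2 fold change was 0.72. On its own the brighter gave a log2 fold change of 0.52 (adjusted p = 0.0686). The call was also lost without embryos replicate 1 (adjusted p = 0.0518) or embryos replicate 2 (adjusted p = 0.0501). The difference from aging adults passed the test under 10 of 19 alternatives, among them the brighter probe set alone (1.02, adjusted p = 0.0106), values at the noise level (1.12, adjusted p = 0.000886) and young adults replicate 3 left out (adjusted p = 0.00356). At the noise level the dimmer probe set is a constant of the array in young adults and on 1 of the 2 aging adult arrays. That narrows the spread, so the p-value of that setting is no added support.

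The gene mes-4 was bright in embryos and mostly within the noise in adults. Its 2 probe sets read 448, 679 and 449 and 459, 565 and 387 in embryos. In young adults they read 14.1, 6.12 and 9.72 and -4.13, -1.35 and -5.71, all below the noise level. In aging adults they read 10.1 and 34.7 and 1.63 and 5.04, so that 1 probe set on 1 of 2 arrays was above it. Expression was at least 5.31-fold higher in embryos than in young adults (limma, adjusted p = 5.35e-05). That p-value depends on a probe set that was negative on every young adult array and set to a small constant there. Against aging adults embryos were also higher (adjusted p = 0.00124), and with lower values raised to the noise level the log2 fold change was 3.08. Both calls were kept under each of the 18 alternatives in which the gene was tested. Both probe sets are of a design that may match several transcripts, so mes-4 could not be tested with that design left out.

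The heterochromatin methyltransferase gene met-2 read 266, 304 and 251 in embryos with the brighter of its 2 probe sets. The same probe set read 26.1, 13.4 and 23.8 in young adults, below the noise level, and 68.7 and 40.9 in aging adults, above it. The dimmer read 167, 120 and 136 in embryos, 18.4, 22.1 and 17.95 in young adults and 30.9 and 9.71 in aging adults, with no adult array above the noise level. Normalized expression was 3.23 ± 0.45 (SD, n = 3) in embryos, which is 3.66-fold above the 0.93 ± 0.45 (SD, n = 2) of aging adults (log2 fold change 1.87, SE 0.35, adjusted p = 0.00492). Since the dimmer probe set was within the noise in aging adults, the value at the noise level, a log2 fold change of 1.44, is the safer size. Against young adults it was at least 2.12-fold higher (adjusted p = 0.00302).

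The COMPASS gene set-2 read 892, 1133 and 748 in embryos with its brighter probe set, 26.2, 24.8 and 39.3 in young adults and 56.8 and 61.8 in aging adults. Its other probe set read 524, 632 and 494, then 14.1, 28.4 and 19.7, and then 21.5 and 34.4. Embryo values were above all adult values in either probe set, and young adults had 1 of 3 arrays above the noise level. Normalized expression was 11.7 ± 1.79 (SD, n = 3) in embryos. Young adults had 1.18 ± 0.15 (SD, n = 3), and aging adults had 1.19 ± 0.34 (SD, n = 2). Embryos were 9.85-fold higher than young adults (log2 fold change 3.301, SE 0.22, limma adjusted p = 4.36e-05) and 9.98-fold higher than aging adults (3.32, SE 0.25, adjusted p = 9.88e-05). With readings under the noise level raised to it, these log2 fold changes were 2.87 and 3.16.

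The HP1 genes had adult signal above the noise level on all 5 arrays. For hpl-1 the probe set that was above the noise level on all 8 arrays read 311, 326 and 244 in embryos, 51.1, 54.7 and 89.9 in young adults and 76.8 and 86.8 in aging adults. Its other probe set read 255, 347 and 237 in embryos, 21.1, 49.8 and 103 in young adults and 71.9 and 47.6 in aging adults. Intensities in embryos were above those of every adult array, but after division by the array median embryos overlapped young adults. Normalized expression was 5.01, 5.24 and 3.845 in embryos, 1.72, 2.496 and 4.40 in young adults and 2.02 and 1.98 in aging adults. The log2 fold change to embryos was 0.81 from young adults (SE 0.34, limma adjusted p = 0.0864) and 1.22 from aging adults (SE 0.38, adjusted p = 0.03704). Young adults replicate 3 held the highest young adult value, and without it the first difference passed the test (log2 fold change 1.17, adjusted p = 0.00668), as it did without rescaling (2.37, adjusted p = 0.00280). The second call was lost without any 1 of the 5 embryo and aging adult arrays (adjusted p = 0.0948, 0.0992 and 0.0510 without embryos replicate 1, 2 and 3, and 0.132 and 0.136 without aging adults replicate 1 and 2) and without young adults replicate 2 (adjusted p = 0.0572).

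For hpl-2, 5 probe sets were annotated to the gene alone. The brightest read 1221, 1373 and 961 in embryos, 97.2, 103 and 191 in young adults and 212 and 186 in aging adults, above the noise level on every array. The other 4 read between 195 and 364 in embryos, between 19.8 and 59.4 in young adults and between 49.3 and 62.5 in aging adults. All 5 are of a design that may bind other transcripts, and all 5 had each embryo value above each adult value. Normalized expression of the gene was 4.66 ± 0.91 (SD, n = 3) in embryos. Young adults had 1.77 ± 0.52 (SD, n = 3), and aging adults had 1.59 ± 0.04 (SD, n = 2). It was 2.67-fold higher in embryos than in young adults (log2 fold change 1.41, SE 0.26, limma adjusted p = 0.00306) and 2.89-fold higher than in aging adults (1.53, SE 0.29, adjusted p = 0.00492). Both calls were kept under each of the 18 alternatives in which the gene was tested.

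Of the demethylase genes, utx-1 read 541, 948 and 663 in embryos with its brighter probe set, 21.9, 31.2 and 38.04 in young adults and 59.4 and 67.3 in aging adults. Its other probe set read 451, 584 and 351, then 19.1, 22.96 and 2.15, and then 42.0 and 40.3. Both aging adult arrays and 1 of 3 young adult arrays were above the noise level. Normalized expression was 9.36 ± 2.00 (SD, n = 3) in embryos. Young adults had 0.92 ± 0.45 (SD, n = 3), and aging adults had 1.48 ± 0.18 (SD, n = 2). Embryos were 11.1-fold higher than young adults (log2 fold change 3.48, SE 0.43, limma adjusted p = 0.000568) and 6.25-fold higher than aging adults (2.64, SE 0.49, adjusted p = 0.00454). The fold against young adults rests on readings mostly below the noise level, and with those raised to it the log2 fold change was 2.55.

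The single probe set of spr-5 read 185, 207 and 134 in embryos, 16.3, 23.02 and 5.15 in young adults and 27.8 and 40.1 in aging adults. No young adult array and 1 of 2 aging adult arrays were above the noise level. The probe set is of a design that may match several transcripts. Expression was at least 1.87-fold higher in embryos than in young adults (limma, adjusted p = 0.0183), a call lost without embryos replicate 1 (adjusted p = 0.0605) or embryos replicate 2 (adjusted p = 0.0595). The log2 fold change from aging adults to embryos was 1.55 (SE 0.67, adjusted p = 0.105), with no overlap between the groups. It passed the test under 5 of 18 alternatives, among them young adults replicate 3 left out (adjusted p = 0.011) and values at the noise level (1.41, adjusted p = 7.5e-05). The latter setting replaces all young adult readings and 1 of 2 aging adult readings by a constant of the array. That narrows the spread, so its smaller p-value is no added support. In normalized expression, as the median over probe sets, young adults replicate 3 held the lowest young adult values of mes-3, spr-5 and utx-1 and the highest of hpl-1 and hpl-2, while its intensities were the highest of the 3 for the brighter probe sets of mes-3 and utx-1.

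Against aging adults, 7 of the 9 genes were higher in embryos and 0 were lower, where 17.8% of all genes were called higher and 27.1% lower. The other members, mes-3 and spr-5, had an adjusted p of 0.0504 and 0.105. For all 9 the groups did not overlap, which 29.8% of all genes showed in that direction. The median log2 fold change was 1.87, and that of all genes was -0.45. Over all genes, the 3054 higher and 4642 lower calls became 4493 and 2518 without rescaling, and 3921 and 3243 when scaled to the probe sets above noise on all arrays. Both comparisons share the embryo arrays, and the plot of fold changes gives them side by side.

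**Figure D2:**
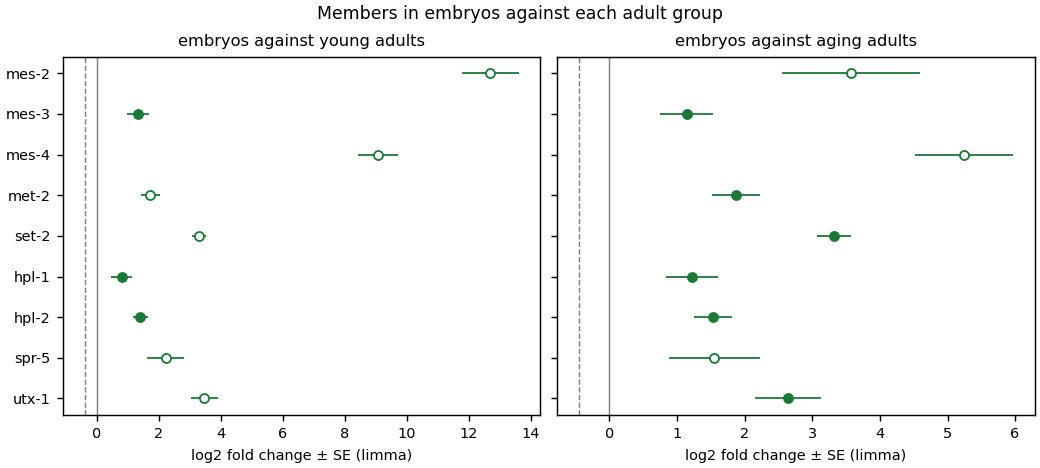
Log2 fold change with its SE from limma, in embryos against young adults (3 arrays against 3) and against aging adults (3 against 2), for the 9 genes. Filled points have every adult array of the comparison above the noise level in any probe set, and open points have not. Open points depend on how readings below the noise level are treated. So do filled points with a further probe set below it, such as mes-3 against young adults and met-2 against aging adults. The dashed line is the median of all genes, at -0.38 and -0.45. All points lie to the right of 0.

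Between aging and young adults, 2 of the 9 genes were called higher in aging adults and 0 lower, where 2.74% of all genes were called higher and 4.44% lower. The 2 were mes-2 and mes-4, with an adjusted p of 0.00445 and 0.0268. Neither is a measured rise: mes-2 was below the noise level on all 5 adult arrays, and mes-4 was above it on 1 of 5, so no fold is given. With lower values raised to the noise level, the log2 fold changes turned to -0.73 and -0.67, which is set by the ratio of noise level to array median, 1.37 to 1.68 in young and 0.91 to 0.92 in aging adults. The call on mes-4 was also lost without aging adults replicate 2 (adjusted p = 0.135) and without embryos replicate 1, 2 or 3 (adjusted p = 0.0933, 0.0930 and 0.0737).

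Of the other 7, hpl-1, hpl-2 and mes-3 were above the noise level on all 5 adult arrays. Their log2 fold changes from young to aging adults were -0.41 (SE 0.38, limma adjusted p = 0.568), -0.12 (SE 0.29, adjusted p = 0.855) and 0.19 (SE 0.39, adjusted p = 0.814). The values of met-2 and set-2 were -0.14 (adjusted p = 0.862) and -0.02 (adjusted p = 0.975). For spr-5 and utx-1 they were 0.67 (adjusted p = 0.602) and 0.83 (adjusted p = 0.364). Aging adults did not overlap young adults for utx-1, as for 17.2% of all genes in that direction, and overlapped them for the other 6. None of these 7 passed the test under any of the 19 alternatives in which it was tested, and the median log2 fold change of the 9 genes was 0.19, against -0.01 for all genes. Without rescaling it was 0.94, with 0.74 for all genes, and the 469 higher and 760 lower calls over all genes became 2723 and 326.

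**Figure D3:**
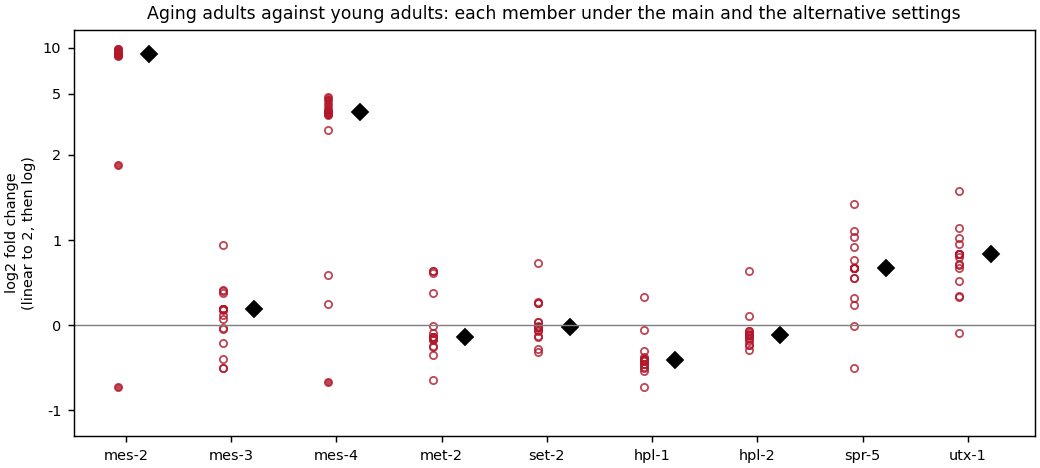
Log2 fold change from young adults (3 arrays) to aging adults (2 arrays) of the 9 genes (vertical axis linear to 2 and logarithmic above). Black diamonds are the values reported, and red circles are the alternative settings, filled where adjusted p was under 0.05. The 7 genes other than mes-2 and mes-4 have open circles only, on both sides of 0 for all 7.

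The order of levels was thus embryos above adults for each of the 9 genes, with hpl-1 not past the test against young adults, and mes-3 and spr-5 not past it against aging adults. Young and aging adults, neighbours in that order, did not differ past the test for any of the 7 genes other than mes-2 and mes-4. Over the 8 arrays, Pearson's correlation of a gene with the mean standardized log2 value of the other members was 0.98 for set-2, 0.97 for utx-1 and 0.95 for mes-4, and 0.64 for hpl-1. The 8 points share the step between embryos and adults. Candidates were the 10856 genes above the noise level on every array of a group. The 5 most like the mean of the 9 were Y37H2A.1, rtfo-1, smu-1, ced-4 and vrk-1, with correlations of 0.9983 to 0.9987. Of these, rtfo-1, a homolog of a transcription elongation factor, had 11.2 in embryos, 2.12 in young and 2.85 in aging adults as group means in multiples of the array median.

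Genes that work with the 9 were taken from a list written by role, of which 20 of 24 had a probe set of their own. In embryos 18 of the 20 were higher than in young adults and 17 of the 20 were higher than in aging adults, with 0 lower in either comparison. Of all genes, 22.5% and 17.8% were called higher and 31.2% and 27.1% lower. The partners' median log2 fold changes were 2.42 and 2.02, and those of all genes were -0.38 and -0.45. Between aging and young adults 0 of the 20 passed the test in limma (0 also at an unadjusted p under 0.05), where 2.74% of all genes were higher and 4.44% lower, and the median of the 20 was 0.29 against -0.01 for all genes.

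The COMPASS partners included ash-2 and wdr-5.1, which encode shared subunits, and set-16, which encodes the catalytic subunit of the related MLL-type complex. Normalized expression of wdr-5.1 was 22.3 ± 4.34 (SD, n = 3) in embryos. Young adults had 4.75 ± 0.69 (SD, n = 3), and aging adults had 5.31 ± 0.17 (SD, n = 2). It was 4.67-fold higher in embryos than in young adults (limma, adjusted p = 8.47e-05). The gene set-16 was 4.87-fold higher (adjusted p = 0.000319) and ash-2 2.08-fold higher (adjusted p = 0.0042), though its call against aging adults (adjusted p = 0.0128) was lost without aging adults replicate 1 (adjusted p = 0.0701). The subunit gene dpy-30, which also serves dosage compensation, did not pass the test (log2 fold change 0.48, adjusted p = 0.177). It passed at 1.93 after quantile normalization (adjusted p = 0.000142), at 2.04 on unscaled intensities (adjusted p = 0.00186) and at 0.82 when scaled to the probe sets above noise everywhere (adjusted p = 0.0123), and it also passed the test without young adults replicate 3 (0.77, adjusted p = 0.0126).

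Of the demethylase partners, lsd-1, a homolog of the same human enzyme as spr-5, was 6.11-fold higher in embryos than in young adults (adjusted p = 0.00148), with 1 of 3 young adult arrays above the noise level and a log2 fold change of 2.23 when the others are raised to it. Its call against aging adults was lost without aging adults replicate 1 (adjusted p = 0.0537). The gene spr-1, whose product is the CoREST-like partner of SPR-5, was 2.98-fold higher (adjusted p = 0.000246). Only 1 of its 2 probe sets was above the noise level on each young adult array, and at that level its log2 fold change was 1.11. The demethylase genes rbr-2 and jmjd-2 were 3.14-fold (adjusted p = 0.00223) and 2.89-fold higher (adjusted p = 0.000592). The gene jmjd-3.1, which like utx-1 encodes a demethylase for the Polycomb mark, was at least 6.58-fold higher (adjusted p = 0.000139). Against aging adults the call on rbr-2 (adjusted p = 0.0404) was lost without embryos replicate 1, 2 or 3 (adjusted p = 0.104, 0.101 and 0.0581), young adults replicate 1 (0.0588) or aging adults replicate 1 (0.247).

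Among methyltransferase partners, set-1, for the enzyme that places a single methyl group on histone H4, was 7.39-fold higher in embryos than in young adults (adjusted p = 9.4e-05), and met-1, for an enzyme of the same mark as MES-4, was 5.91-fold higher (adjusted p = 0.000688), with 1 of 3 young adult arrays above the noise level and a log2 fold change of 2.25 at that level. The gene set-32 was at least 1.72-fold higher. Its p-value (limma, adjusted p = 5.67e-05) is no support for that bound, since all its young adult readings were negative and set to the same small constant. The heterochromatin methyltransferase gene set-25 did not pass the test (adjusted p = 0.0804) and was above the noise level on no adult array, and it turned to a log2 fold change of -0.48 with lower values raised to the noise level. For dot-1.1, whose call was 1 of the 18 (adjusted p = 0.0448), the probe sets of young adults lay in part at the floor and no fold is given. It was lost without each of 7 arrays, with an adjusted p of 0.105, 0.099 and 0.106 without embryos replicate 1, 2 and 3, 0.120 and 0.116 without young adults replicate 2 and 3, and 0.07267 and 0.07265 without aging adults replicate 1 and 2.

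The reader and repressor genes were higher in embryos too. The gene mrg-1, for a chromodomain protein of methylated chromatin, was 7.61-fold higher in embryos, at 30.9 ± 5.2 (SD, n = 3), than in young adults, at 4.10 ± 1.02 (SD, n = 3) (limma, adjusted p = 5.35e-05). The gene lin-61, for a reader of the heterochromatin mark, was 7.29-fold higher (adjusted p = 0.000171, 1 of 3 young adult arrays above the noise level, log2 fold change 2.60 at that level), lin-13, for a zinc finger protein that binds HPL-2, 2.21-fold (adjusted p = 0.00151) and arle-14, for a partner of MET-2, 3.34-fold (adjusted p = 0.000952). The retinoblastoma homolog gene lin-35 was 7.29-fold higher (adjusted p = 8.44e-05, log2 fold change 2.57 at the noise level) and the chromatin remodeler gene let-418 2.92-fold higher (adjusted p = 0.00466). Against aging adults the call on lin-13 (limma, adjusted p = 0.0214) was lost without embryos replicate 1 or 2 (adjusted p = 0.0504 and 0.0617). Without aging adults replicate 1, which leaves 1 array in that group, neither lin-13 (log2 fold change 0.51) nor let-418 (1.46) kept its call.

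**Figure D4:**
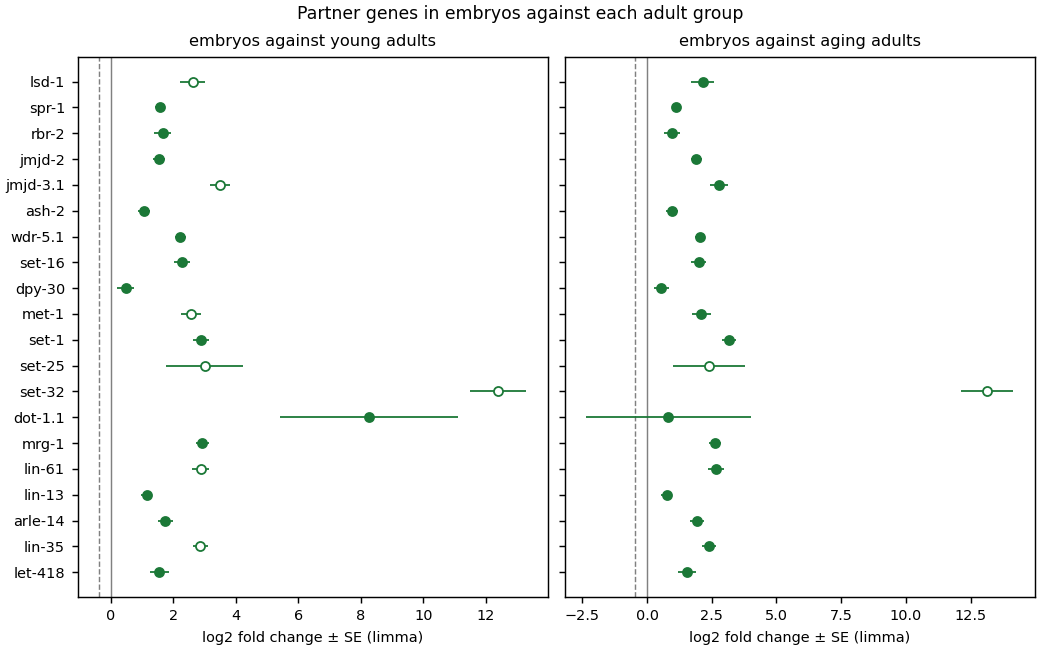
Log2 fold change with its SE from limma of the 20 partner genes in embryos against young adults (3 arrays against 3) and against aging adults (3 against 2). Filled points have every adult array above the noise level in at least 1 probe set, open points have not, and the dashed line is the median of all genes, at -0.38 and -0.45. The widest SE is that of dot-1.1.

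In the wider lists, 79 of 87 genes had a probe set of their own. These lists include partners already counted above, so their counts are not separate from those of the partners. From young adults to embryos 58 were higher and 1 was lower, beside 22.5% and 31.2% of all genes, and their median log2 fold change was 2.29. By list, the higher genes were 8 of 10 COMPASS partners, 8 of 11 demethylases, 18 of 30 other methyltransferases, 10 of 11 heterochromatin and reader genes and 14 of 17 genes of the synMuv B, DREAM and NuRD repressors. The 1 lower gene was set-11, of the other methyltransferases, above the noise level on 1 of 8 arrays. Against aging adults 51 were higher, beside 17.8% of all genes, and 1 was lower, beside 27.1%. The lower gene was jmjd-3.3, at -1.52 on the log2 scale (limma, adjusted p = 0.0267). From young to aging adults 1 of the 79 was higher and 1 was lower, no larger a share than the 2.74% and 4.44% of all genes. The first was set-3, at 0.94 on that scale (adjusted p = 0.0441), and the second was dot-1.4, which was above the noise level on no adult array. These 4 genes are named after their values were seen.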

How the data were processed

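Per the labels, 8 one-colour Affymetrix arrays were scanned and read with GeneChip Operating Software 1.2.0.037, and the study's methods name Rosetta Resolver for the analysis. How the authors corrected the background is not given in the sources used here. The deposited values are intensity on a linear scale, partly negative, for 22548 probe sets. A table of the authors' own fold changes and p values was not used.

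As in the methods, readings under 0.01 became 0.01 and were scaled to the median of their array. They were then put on the log2 scale. Of the probe sets, 20766 have 1 annotated gene, 887 several and 895 none. The median over its own probe sets stood for each of 17118 genes. The test was limma 3.58.1 (R 4.3.3) on the 8 arrays together, with a variance trend, no covariate and Benjamini-Hochberg adjustment over all genes, at 0.05. A lower bound on a fold puts the dimmer group no lower than the noise. The p-value given with a bound is that of the fit without this limit, so it does not test the bound. The code was tested on simulated data.

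The members and lists were chosen with earlier results of these data known. Named were the 9 measured members, 20 partners and the 5 genes most like the members. The 19 alternatives were quantile normalization, no rescaling, scaling to the 7322 probe sets above noise on all arrays, adding 0.1 before the log2, raising values to the noise level, a filter at noise on 2 arrays, fitting only the groups compared, a replicate block, the highest probe set, dropping _s_at and _x_at probe sets (designs that may match several transcripts), no variance trend, and each of the 8 arrays left out. A fit of single probe sets was added after seeing the data.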

Additional observations from a re-analysis of the deposited data

How the results depend on the processing

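Members higher in embryos numbered 8 against young and 7 against aging adults. Dropping _s_at and _x_at probe sets left 5 members to test, of which 3 and 4 were higher. The members mes-2, mes-4, hpl-2 and spr-5 have no other probe sets. Leaving out single arrays gave 6 to 9 against young and 5 to 9 against aging adults. The 2 members called higher in aging than in young adults became 1 after adding 0.1, with only the 2 groups compared and with the highest probe set, 1 to 2 with single arrays left out, and 0 without _s_at and _x_at probe sets. Raising values to the noise level gave 0 higher and 2 lower. There mes-2 turned to -0.73 and mes-4 to -0.67 (log2, aging against young adults), set-25 to -0.73 and dot-1.1 to -0.60, and set-25 to -0.48 in embryos against young adults. The setting's construction gives these signs, since the noise level is a larger multiple of the median in young adults. The cause of the other changes was not tested.

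Same-numbered samples of different groups had deviations from their group mean that correlated at -0.057 to 0.146, and differently numbered ones at -0.148 to 0.057. These ranges cannot decide whether a replicate number marks a shared batch. The deviations of the aging adult arrays mirror each other by construction, and the labels do not say what the numbers stand for. With the replicate block, 8 and 7 members were higher in embryos than in young and aging adults, but against aging adults mes-2 and hpl-1 lost their calls (adjusted p = 0.0870 and 0.109) and mes-3 and spr-5 gained theirs (0.0272 and 0.0286), and 1 was higher in aging than in young adults. Low signal in young adults limits the folds of mes-2, mes-4, met-2 and spr-5 to bounds there, and that of mes-2 in aging adults too.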
